A study of Mus musculus with 12 samples.

Results

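SR proteins and hnRNPs are the 2 large families of RNA-binding proteins that decide which exons and splice sites of a transcript are used. The genes described here are the protein-coding genes whose symbol starts with Srsf and a number or with Hnrnp, together with Tra2a, Tra2b, Ptbp1, Ptbp2, Ptbp3, Pcbp1 and Pcbp2. They number 39 of the 20581 protein-coding genes in the files, with 11 SR proteins, 2 SR-like Tra2 genes and 26 hnRNP, Ptbp and Pcbp genes, and they carry 101 RefSeq transcripts, of which 6 are annotated as non-coding. They were followed in mouse zygotes of the B6D2F1 strain in 2 experiments with 2 libraries per group. Total RNA-seq compared zygotes that received siRNA against Lsm1 (Lsm1_KD) with zygotes that received scramble siRNA (Ctrl). RIP-seq used zygotes that received mRNA for LSM1 with a triple FLAG tag, whose lysate was sequenced before (FLAG_Input) and after (FLAG_IP) purification on anti-FLAG beads, and a control arm that was also sequenced before (Ctrl_Input) and after (Ctrl_IP) its pull-down. The treatment labels of that control arm name untagged Lsm1 mRNA, while its titles name IgG, so that what the control held is not settled here. By the labels, the females were 8 to 10 weeks old and zygotes were collected 18 to 20 h after hCG. The study's methods give a younger age range and collection at 20 h. The labels place the siRNA injection in zygotes, whereas the study also describes injection into germinal vesicle oocytes, so that the stage of injection is not settled here. Each RNA-seq library was made from a few embryos. The study describes the libraries of a group as biologically independent. The p-values measure the spread between libraries of a group, taken over all groups of the same experiment. In the RIP-seq they therefore also carry the spread of groups that a comparison leaves out.

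SR proteins carry RNA recognition motifs and a tail rich in arginine and serine, bind exonic enhancer sequences and recruit the spliceosome. Most hnRNPs bind silencer sequences and often act against SR proteins, and several also guard the stability and translation of mRNA in the cytoplasm. Many genes of both families control their own level through a cassette exon that carries a stop codon, known as a poison exon: when the protein is abundant the exon is included, and the resulting transcript is degraded by nonsense-mediated decay or held in the nucleus. LSM1 is a subunit of the cytoplasmic LSM1-7 ring, which binds the end of deadenylated mRNA and promotes removal of its cap. In the zygote, transcription has barely begun and most mRNA was stored by the oocyte, so that RNA levels are set largely by storage and decay.

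The libraries held 4636492 to 13968315 estimated counts in the RNA-seq and 9865512 to 31586450 in the RIP-seq, and the members took 0.492% to 0.701% of them. Levels are given as normalized CPM, that is, counts scaled to library size after the library sizes were adjusted by the TMM method. The targeted gene, Lsm1, stood at 61.7 and 69.7 CPM (before the TMM adjustment) in Lsm1_KD and at 152 and 144 CPM in Ctrl, a log2 fold change of -1.10 (SE 0.22, adjusted p = 0.012). Lsm1 RNA was at 9931 and 14731 CPM in FLAG_Input but at 16.3 and 16.1 CPM in Ctrl_Input, so that the control arm showed no excess of the mRNA its labels name. The first FLAG_IP library stood apart, with 12.7% of its counts on repeats against 0.102% to 2.63% in every other library and a TMM factor of 1.86 against 0.873 to 1.06, and called values are given with and without it. The 14 oocyte marker genes in the files summed to 8173 to 14338 normalized CPM in all libraries except the 4 pull-downs, while 13 cumulus and granulosa cell markers summed to 13.4 to 64.0 and 8 sperm markers to 3.56 to 16.9 and 9 markers of the 2-cell embryo to 300.5 to 797 in any library, and no marker was at 0 in every library. Sp110 made up most of the 2-cell sum in the RNA-seq, at 349 and 292 in Lsm1_KD and 343 and 376 in Ctrl. The other 2-cell markers were each at 5.69 or less in those libraries. All libraries are bulk samples, in which fewer cells and less RNA per cell cannot be told apart.

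In Lsm1_KD zygotes, RNA of 8 of the 37 members that could be tested rose and that of none fell. The 8 were 7 hnRNP-type genes, led by Hnrnpl, Hnrnpa2b1 and Hnrnpd, and 1 SR protein, Srsf5. Over all 11335 genes and repeats tested, 731 (6.45%) rose and 517 (4.56%) fell. The members' median log2 fold change was 0.37, against 0.01 for all tested features, and 26 members lay above 0 and 11 below, against 5704 and 5631 of all features. At an unadjusted p under 0.05, 13 of the 37 members were higher and 1, Srsf7, was lower, against 1612 (14.2%) and 1463 (12.9%) of all features. The 2 members that were not tested, Srsf12 and Hnrnpa1l2-ps2, had almost no counts in these 4 libraries.

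Hnrnpl, which binds CA-rich RNA and represses exons, stood at 48.2 and 39.3 normalized CPM in Lsm1_KD and at 5.68 and 14.6 in Ctrl. Its log2 fold change was 2.14 (SE 0.44, adjusted p = 0.014), the largest among the members. Both Lsm1_KD libraries lay well above both Ctrl libraries, although the Ctrl values differed from each other. Hnrnpa2b1, a core hnRNP particle protein that also reads RNA marks and sorts RNA, stood at 349 and 453 in Lsm1_KD and at 111 and 120 in Ctrl (log2 fold change 1.79, SE 0.21, adjusted p = 0.0014). Hnrnpd, also known as AUF1, binds AU-rich elements and directs the decay of their mRNAs. It stood at 155 and 149 normalized CPM in Lsm1_KD and at 51.8 and 59.0 in Ctrl (log2 fold change 1.46, SE 0.22, adjusted p = 0.0039). For these 3 genes the groups did not overlap, and the gap between the group means was larger than the gap within either group. They lie at chr7:28808546-28822268 (plus strand), chr6:51460434-51470048 (minus strand) and chr5:99955935-99979130 (minus strand) of GRCm38, in the order named.

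Hnrnpa0, a small hnRNP A-type protein that binds AU-rich elements, stood at 43.1 and 43.6 normalized CPM in Lsm1_KD and at 22.5 and 15.1 in Ctrl (log2 fold change 1.19, SE 0.31, adjusted p = 0.036). Ptbp2, the polypyrimidine tract-binding protein best known from neurons and male germ cells, stood at 255 and 246 in Lsm1_KD and at 131 and 115 in Ctrl (log2 fold change 1.03, SE 0.20, adjusted p = 0.011). Its close relative Ptbp1 stood at 292 and 316 against 237 and 431 (log2 fold change -0.13, SE 0.26), and Ptbp3 had a log2 fold change of 0.07 (SE 0.26). Whether Ptbp2 differed from its relatives was not tested.

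Hnrnpa1, a general antagonist of SR proteins, stood at 210 and 138 normalized CPM in Lsm1_KD and at 105 and 79.9 in Ctrl (log2 fold change 0.91, SE 0.26, adjusted p = 0.049). The Lsm1_KD libraries were both above the Ctrl libraries but unequal. Srsf5, the called SR protein, stood at 112 and 111 against 67.8 and 62.0 (log2 fold change 0.78, SE 0.22, adjusted p = 0.048). Pcbp1, a poly(C)-binding protein that stabilizes mRNAs and is encoded by an intronless gene, was the most abundant member. It stood at 1534 and 1788 normalized CPM in Lsm1_KD and at 1092 and 989 in Ctrl (log2 fold change 0.67, SE 0.19, adjusted p = 0.046). These 3 calls were close to the threshold.

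**Figure D1:**
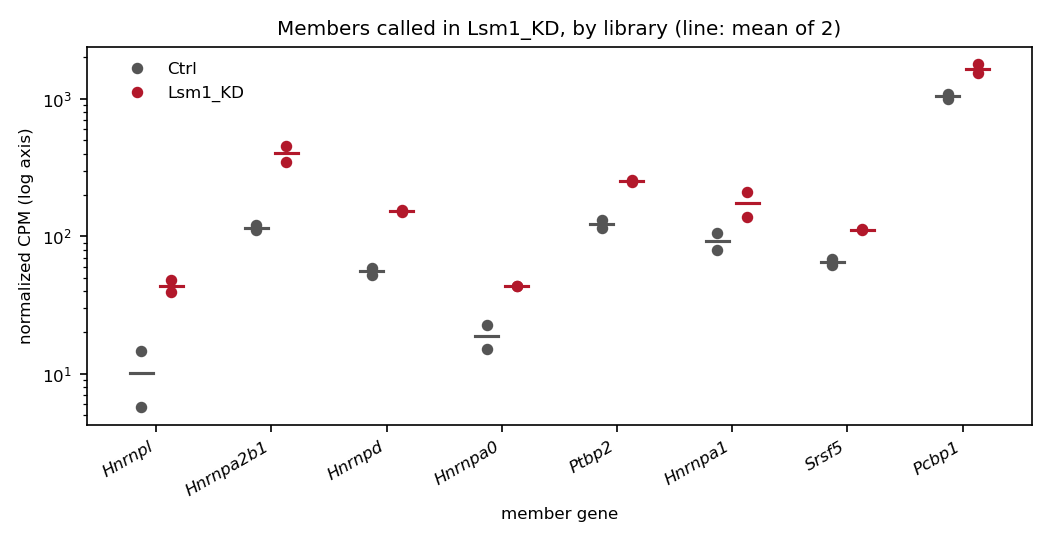
Normalized CPM (vertical log axis) of the 8 members called in Lsm1_KD, ordered by log2 fold change, with 1 point per library and a line at the mean of 2. Both Lsm1_KD points lie above both Ctrl points for each gene, from Hnrnpl (48.2 and 39.3 against 5.68 and 14.6) to Pcbp1 (1534 and 1788 against 1092 and 989).

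Per transcript length, the most abundant members in Ctrl zygotes were Pcbp1, at 1661 and 1431 TPM (a level corrected for transcript length and depth), and Hnrnpf, which binds G-rich tracts, at 567 and 707 TPM. Hnrnpk, a poly(C)-binding relative of the Pcbp proteins, followed at 234 and 325 TPM, and Ptbp1 at 194 and 336 TPM. The Ctrl values of Hnrnpk and Ptbp1 overlapped, so that their order is not fixed. In Lsm1_KD, Hnrnpf stood at 672 and 654 TPM, and its log2 fold change in normalized CPM was 0.34 (SE 0.20, adjusted p = 0.30). Hnrnpk stood at 217 and 185 TPM, with a log2 fold change in normalized CPM of -0.20 (SE 0.22, adjusted p = 0.61). Neither could be separated from its spread. The least abundant SR proteins that could be tested were Srsf1, at a mean of 4.93 TPM in Ctrl, Srsf9 at 5.46 and Srsf6 at 6.76.

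The 29 members that did not pass the test spanned log2 fold changes from -0.77 for Tra2a (adjusted p = 0.39) to 1.24 for Srsf9 (adjusted p = 0.32). Srsf10, which is dephosphorylated in mitosis and under stress and then represses splicing, stood at 101 and 135 normalized CPM against 77.9 and 64.2 (log2 fold change 0.73, adjusted p = 0.079). Hnrnph3 stood at 57.2 and 59.1 against 34.6 and 33.5 (log2 fold change 0.78, adjusted p = 0.077). In the other direction, Srsf7, which couples splicing to mRNA export, stood at 25.8 and 34.6 normalized CPM in Lsm1_KD and at 47.7 and 50.7 in Ctrl (log2 fold change -0.70, SE 0.28, adjusted p = 0.14). Hnrnpll, the paralog of Hnrnpl, had a log2 fold change of -0.76 (SE 0.36, adjusted p = 0.20).

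**Figure D2:**
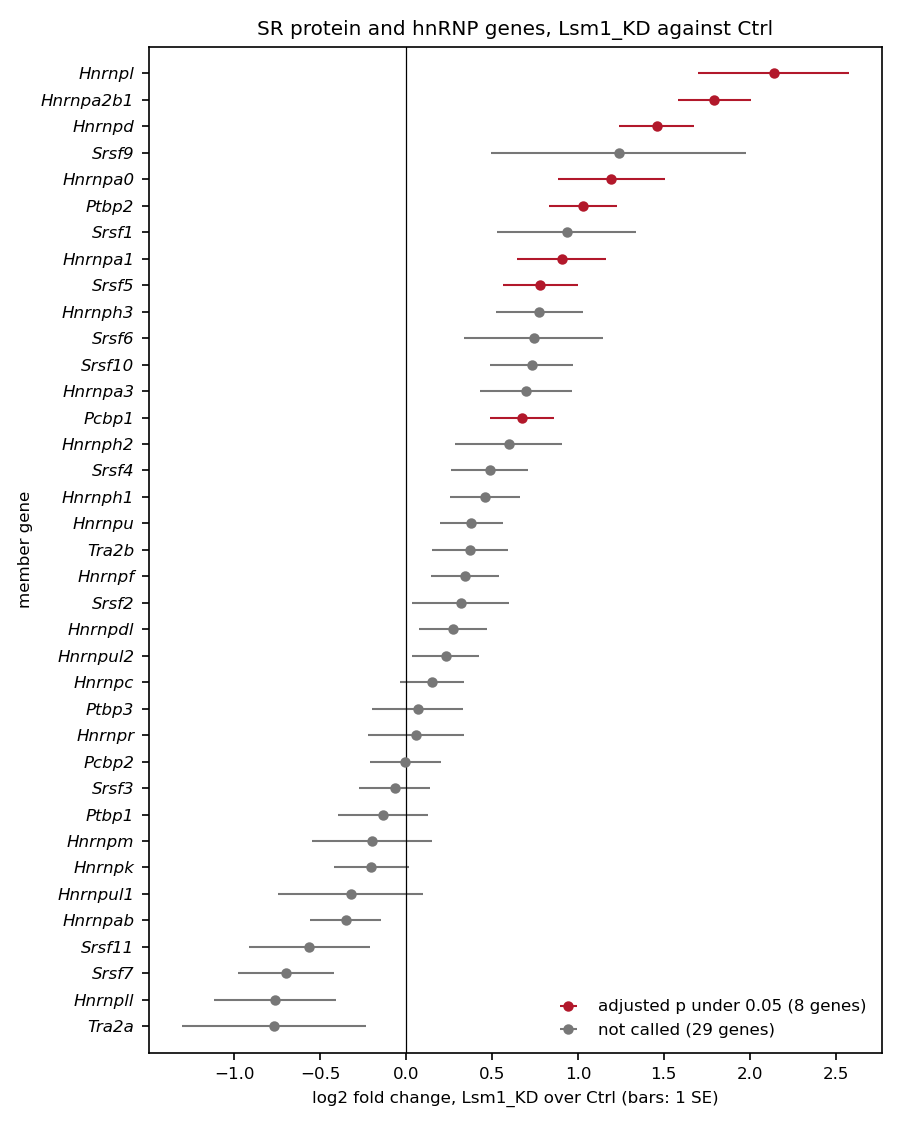
Log2 fold change of each of the 37 tested members in Lsm1_KD over Ctrl (horizontal axis) with bars of 1 SE, ordered by value, the 8 called genes in red. The called genes lie between 0.67 and 2.14, while the uncalled genes span -0.77 to 1.24, and Srsf9, with the widest bar, lies with several others inside the called range.

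The calls differed in how firmly they held. Hnrnpl, Hnrnpa2b1 and Hnrnpd were called under each of 15 alternatives. Ptbp2 was called under 13 of these 15, with log2 fold changes of 0.74 to 1.12. Hnrnpa0, Hnrnpa1 and Pcbp1 were each called under 8 of the 15, and Srsf5 under 6. On the log2(TPM + 1) scale only Hnrnpl, Hnrnpa2b1 and Hnrnpd were called, and there the median of all features was -0.23 and that of the members 0.07.

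Another 3 sets of splicing genes were read in the same fit. Of 18 tested kinases, phosphatase subunits and importins that act on SR proteins, 0 were called in either direction, although before adjustment 5 lay above and 2 below at p under 0.05. Of 32 SR-related splicing proteins, 8 rose and 2 fell. Zrsr2, which recognizes minor-class introns, rose by a log2 fold change of 1.68 (adjusted p = 0.0032), and U2af2, the large subunit of U2AF that binds the polypyrimidine tract, by 1.56 (adjusted p = 0.0060). Sap18 and Acin1, both in the ASAP complex on spliced mRNA, rose by 1.30 and 1.09 (adjusted p = 0.034 and 0.035), while Scaf11 and Bclaf1 had log2 fold changes of -0.84 and -0.82 (adjusted p = 0.025 and 0.025). Of 55 other splicing-regulatory RNA-binding proteins, 9 rose and 5 fell. Taf15, an RNA-binding protein that is also a TFIID-associated factor, stood at 25.5 and 22.4 normalized CPM in Lsm1_KD and at 5.72 and 3.16 in Ctrl (log2 fold change 2.40, adjusted p = 0.0096), and Ewsr1 rose by 1.19 (adjusted p = 0.017). Khsrp, a KH-domain protein of AU-rich element decay, rose by 1.54 (adjusted p = 0.0082) and Rbm47 by 1.54 (adjusted p = 0.013). The nuclear matrix protein Matr3 had a log2 fold change of -1.22 (adjusted p = 0.0039), with Celf2 at -0.93 (adjusted p = 0.015), Esrp1 at -0.92 (adjusted p = 0.023) and Rbm6 at -0.73 (adjusted p = 0.034). The medians of the 3 sets were 0.17, 0.22 and 0.31, each above that of all features.

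Single transcripts of the members could be tested less well. Among 77 member transcripts, edgeR called 0, as it did among all 14580 transcripts and repeats (0% in each direction), whereas before adjustment 15 member transcripts were higher and 4 lower (p under 0.05), against 1325 (9.09%) and 1450 (9.95%) of all. DESeq2 called 11 member transcripts higher and 3 lower, against 891 (6.11%) and 952 (6.53%) of all. The rise of Hnrnpa2b1 was carried by 1 transcript, the non-coding NR_104468, which stood at 309 and 361 normalized CPM in Lsm1_KD and at 71.6 and 85.3 in Ctrl (log2 fold change 2.07, SE 0.19, edgeR adjusted p = 0.089, DESeq2 adjusted p = 1.2e-17). The coding NM_016806 stood at 39.5 and 91.5 against 39.0 and 34.4. The share of NR_104468 in the TPM of the gene was therefore 88.6% and 79.7% in Lsm1_KD and 64.0% and 71.1% in Ctrl, against 24.0% to 29.9% in the 8 RIP-seq libraries, which were made with another kit. NR_104468 adds an exon of 136 nt at chr6:51461920-51462055 (minus strand, GRCm38), downstream of the normal stop codon, so that the last exon junction lies 157 nt past that codon instead of 21 nt in NM_182650. A junction far past the stop codon is a feature by which nonsense-mediated decay can recognize a transcript. Salmon divided reads of shared exons among the 3 transcripts of the gene, so that these shares are estimates.

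In other called genes the main coding transcripts were higher in both Lsm1_KD libraries. For Hnrnpd, NM_001077265 stood at 74.0 and 102 normalized CPM in Lsm1_KD and at 30.8 and 47.2 in Ctrl (log2 fold change 1.15, edgeR adjusted p = 0.19), and NM_001077266 stood at 28.3 and 35.2 in Lsm1_KD against a mean of 11.8 in Ctrl (log2 fold change 1.40, edgeR adjusted p = 0.17, DESeq2 adjusted p = 0.028). For Hnrnpa1, NM_010447 stood at 175 and 111 against 79.1 and 56.5 (log2 fold change 1.04, edgeR adjusted p = 0.21). For Srsf5, NM_001079694 stood at 78.3 and 58.4 against 25.9 and 32.4 (log2 fold change 1.20, edgeR adjusted p = 0.15, DESeq2 adjusted p = 0.019). The division between transcripts was less steady than the sum for Ptbp2, where NM_001310711 stood at 162 and 80.9 against 50.8 and 56.0 and NM_019550 at 93.1 and 165 against 80.0 and 58.8. In the uncalled but abundant Hnrnpf, NM_133834 took 95.3% to 98.3% of the TPM in all 4 libraries, and in Hnrnpk the largest of 6 transcripts took at most 42.9%.

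For Pcbp2, whose summed level was 204 and 186 normalized CPM in Lsm1_KD and 218 and 173 in Ctrl (log2 fold change -0.01), the share of NM_001103166 was 46.9% and 52.6% in Lsm1_KD and 25.3% and 26.5% in Ctrl. That transcript had a log2 fold change of 0.92 (edgeR adjusted p = 0.15, DESeq2 adjusted p = 0.012). For Tra2b the share of NM_001330555, which includes a poison exon, was 41.6% and 69.3% in Lsm1_KD and 24.8% and 19.3% in Ctrl. Its level was 56.6 and 74.9 against 23.5 and 19.0 normalized CPM (log2 fold change 1.60, SE 0.32, edgeR adjusted p = 0.12, DESeq2 adjusted p = 9.2e-04). The main coding transcript NM_009186 was uneven in Lsm1_KD, at 62.3 and 2.27 against 57.8 and 54.4. Salmon divided reads of shared exons here too, so that the shares in both genes are estimates. Both transcripts were chosen after their values were seen, and changes of share were not computed over all coding transcripts.

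The inputs of the RIP-seq asked whether tagged LSM1 mRNA changed the members in the lysate. With edgeR, 0 of 39 members were called between FLAG_Input and Ctrl_Input, as were 0 of all 18972 features (0% in each direction), with 0 members at an unadjusted p under 0.05 and 0 called by DESeq2 or limma. Lsm1 itself, with a log2 difference of 9.55 between these inputs, was not called in the same fit, where its SE was 2.74. Its FLAG_IP libraries, at 5986 and 139138 normalized CPM, enter that spread. The members' SE ran from 0.30 for Hnrnpl to 1.14 for Hnrnpa1l2-ps2, and differences within these errors could be missed. The spread of the pull-downs enters these errors too. Srsf4 stood at 147 and 155 normalized CPM in FLAG_Input and at 143 and 157 in Ctrl_Input. Its SE was 0.59, and its FLAG_IP libraries were at 36.5 and 182. A fit of the inputs alone also called 0 of 37 members. Neither count of 0 shows that the members were unchanged. The members' median log2 difference was -0.06 and that of all features 0.02. Hnrnpu, the scaffold attachment factor and 1 of the most abundant members there, stood at 819 and 934 normalized CPM in FLAG_Input and at 934 and 1003 in Ctrl_Input, and Srsf7 at 12.5 and 13.1 against 14.0 and 13.8.

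On anti-FLAG beads, 4 of the 39 members rose from FLAG_Input to FLAG_IP and 1 fell, while over all features 3975 of 18972 (21.0%) rose and 1041 (5.49%) fell. The members that rose were Srsf7, Tra2a and the scarce Srsf12 and Hnrnpa1l2-ps2, and the member that fell was Pcbp2. Srsf12 and Hnrnpa1l2-ps2 held under 10 estimated counts in each input and passed the abundance filter only through the pull-downs. That filter favored a rise, so that their calls are no evidence of one. With a mean of at least 50 counts required, 3 of 37 members rose and 1 fell, against 17.4% and 3.67% of all features. In the control arm, from Ctrl_Input to Ctrl_IP, only Srsf7 rose and no member fell, against 403 (2.12%) and 1 (0.00527%) of all features. The members' median log2 fold change was -0.37 in the FLAG pull-down and -0.13 in the Ctrl pull-down, against 0.49 and 0.12 over all features. These fits shared the spread of all RIP-seq libraries. Fitted from its own libraries alone, the control arm gave 2 members higher and 2 lower, against 14.1% and 3.13% of all features.

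Srsf7 stood at 12.5 and 13.1 normalized CPM in FLAG_Input and at 60.8 and 69.4 in FLAG_IP (log2 fold change 2.34, SE 0.34, adjusted p = 0.0029). It stood at 14.0 and 13.8 in Ctrl_Input and at 78.5 and 47.8 in Ctrl_IP (log2 fold change 2.18, SE 0.34, adjusted p = 0.0068). The 4 pull-down libraries lay far above the 4 inputs in both arms. The difference between the pull-downs was 0.16 on the log2 scale (SE 0.46, adjusted p = 0.92).

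Tra2a, an SR-like activator of exons, stood at 5.78 and 8.21 normalized CPM in FLAG_Input and at 19.4 and 12.5 in FLAG_IP (log2 fold change 1.19, SE 0.41, adjusted p = 0.049), and at 7.96 and 8.10 in Ctrl_Input and 15.1 and 10.1 in Ctrl_IP (log2 fold change 0.65, adjusted p = 0.49). Without the first FLAG_IP library its FLAG value was 0.80 (adjusted p = 0.13). Srsf12, an SR protein that counters other SR proteins, had 7 and 5 estimated counts in FLAG_Input against 150.3 and 30 in FLAG_IP (log2 fold change 4.38, SE 1.14, adjusted p = 0.021), and 6 and 6 in Ctrl_Input against 49 and 12 in Ctrl_IP (log2 fold change 3.30, adjusted p = 0.15). Without the first FLAG_IP library its FLAG value was 3.23 (adjusted p = 0.054). Hnrnpa1l2-ps2 is a 1-exon near copy of Hnrnpa1, annotated as protein-coding, whose reads cannot be cleanly told from those of Hnrnpa1. It had 2.08 and 9.22 estimated counts in FLAG_Input and 154 and 46.0 in FLAG_IP (log2 fold change 4.71, SE 1.11, adjusted p = 0.015), and without the first FLAG_IP library its value was 3.98 (adjusted p = 0.028). For Srsf7 that value was 2.40 (adjusted p = 5.6e-04).

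Pcbp2, a poly(C)-binding protein that stabilizes mRNAs, stood at 240 and 177 normalized CPM in FLAG_Input and at 49.8 and 94.2 in FLAG_IP (log2 fold change -1.53, SE 0.46, adjusted p = 0.034), and without the first FLAG_IP library the log2 fold change was -1.18 (adjusted p = 0.0088). In the control arm it stood at 207 and 204 before and 137 and 152 after the pull-down (log2 fold change -0.51, SE 0.45, adjusted p = 0.67). Pcbp1, which was not called, stood at 313 and 341 in FLAG_Input against 50.3 and 218 in FLAG_IP (log2 fold change -1.29, adjusted p = 0.13), and Ptbp1, also not called, at 385 and 387 against 74.7 and 240 (log2 fold change -1.30, adjusted p = 0.11). In each the first FLAG_IP library was far lower than the second, and without it the values were -0.62 for Pcbp1 (adjusted p = 0.079) and -0.72 for Ptbp1 (adjusted p = 0.027). The oocyte markers moved with these genes, at 8911 and 8173 normalized CPM in FLAG_Input and 1777 and 4748 in FLAG_IP, against 9411 and 8884 in Ctrl_Input and 6975 and 7165 in Ctrl_IP, and their part in the members' values was not tested.

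Srsf7 was the sole member called in the FLAG pull-down when the first or the second FLAG_Input library was left out, where 2.29% and 4.28% of all features were called. Without the first FLAG_IP library 5 of 39 members were called, 2 higher and 3 lower, against 10.5% and 9.48% of all features, and 3 of the 5 were among the 5 called with all libraries. Without the second FLAG_IP library 30 members were called, 7 higher and 23 lower, against 35.9% and 28.5% of all features. The median of all features was then 1.09, against 0.10 without the first. The Srsf7 call in the Ctrl pull-down was lost without the first Ctrl_Input library (adjusted p = 0.072), the second (0.11) or the first Ctrl_IP library (0.081). The scaling also mattered, because without TMM factors the median of all features in the FLAG pull-down moved from 0.49 to 1.16 and with the length trend taken out to -0.32, while Srsf7 stayed called there under each of 15 alternatives, with log2 fold changes of 1.51 to 2.91.

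The other splicing genes were read in the same fits, and the inputs and the ratio of the pull-downs gave 0 calls among them. In the FLAG pull-down, 4 of 19 kinases, phosphatase subunits and importins (21.1%) rose and 2 (10.5%) fell, which for the rises is close to the 21.0% of all features. The transport receptor of SR proteins Tnpo3 rose by a log2 fold change of 2.01 (adjusted p = 0.017), the kinases Srpk3 and Clk4 by 3.97 (adjusted p = 0.017) and 2.20 (adjusted p = 0.023), and the phosphatase subunit Ppp1r8 by 1.31 (adjusted p = 0.019), while the kinases Dyrk1b and Clk3 had log2 fold changes of -1.34 (adjusted p = 0.017) and -0.91 (adjusted p = 0.044). Clk4 stood at 3.10 and 4.19 normalized CPM in FLAG_Input and 24.2 and 9.16 in FLAG_IP. Without the first FLAG_IP library Clk4 and Srpk3 lost their call, with log2 fold changes of 1.29 (adjusted p = 0.090) and 1.92 (adjusted p = 0.14), and the other 4 of these genes kept theirs. Of 33 SR-related splicing proteins 0 rose and 1 fell, U2af1l4, with a log2 fold change of -1.25 (adjusted p = 0.030). Of 65 other splicing-regulatory RNA-binding proteins 8 (12.3%) rose, below the share of all features, and 2 (3.08%) fell, with Rbm10 at 2.33 (adjusted p = 0.012), Mbnl2 at 4.57 (adjusted p = 0.015), Syncrip at 2.08 (adjusted p = 0.016), Celf6 at 3.92 (adjusted p = 0.024), Pcbp3 at -1.36 (adjusted p = 0.026) and Cirbp at -1.12 (adjusted p = 0.034). Mbnl2 and Celf6 were at 0.45 normalized CPM or less in each input. Like Srsf12, they passed the abundance filter only through the pull-downs. That filter favored a rise, so that these 2 of the 8 calls are no evidence of one. Without the first FLAG_IP library Celf6 had a log2 fold change of 2.79 and Mbnl2 of 3.63. The other 5 genes named of these 2 sets kept their direction without that library. Of the 10 called genes of the last set, 6 were also called then. In the Ctrl pull-down Ppp1r8 alone was called among the 3 sets, at 11.4 and 9.97 normalized CPM in Ctrl_Input and 36.0 and 24.1 in Ctrl_IP (log2 fold change 1.49, adjusted p = 0.041).

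LSM1 binding was asked as the ratio of FLAG_IP to FLAG_Input over the ratio of Ctrl_IP to Ctrl_Input. With edgeR, 0 of 39 members were called, as were 0 of all 18972 features (0% in each direction). Before adjustment, 0 members had a p under 0.05, as did 756 higher and 239 lower features of all, and DESeq2 called 0 members. Without the second FLAG_IP library, 18 members were called, 1 higher and 17 lower, against 8.3% and 22.2% of all features. The largest positive values were 1.08 for Srsf12 (SE 1.49), 1.01 for Srsf6 (SE 0.59) and 1.01 for Hnrnpa1l2-ps2 (SE 1.60), and the lowest was -1.03 for Pcbp2 (SE 0.64), all with an adjusted p of 0.79 or more.

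**Figure D3:**
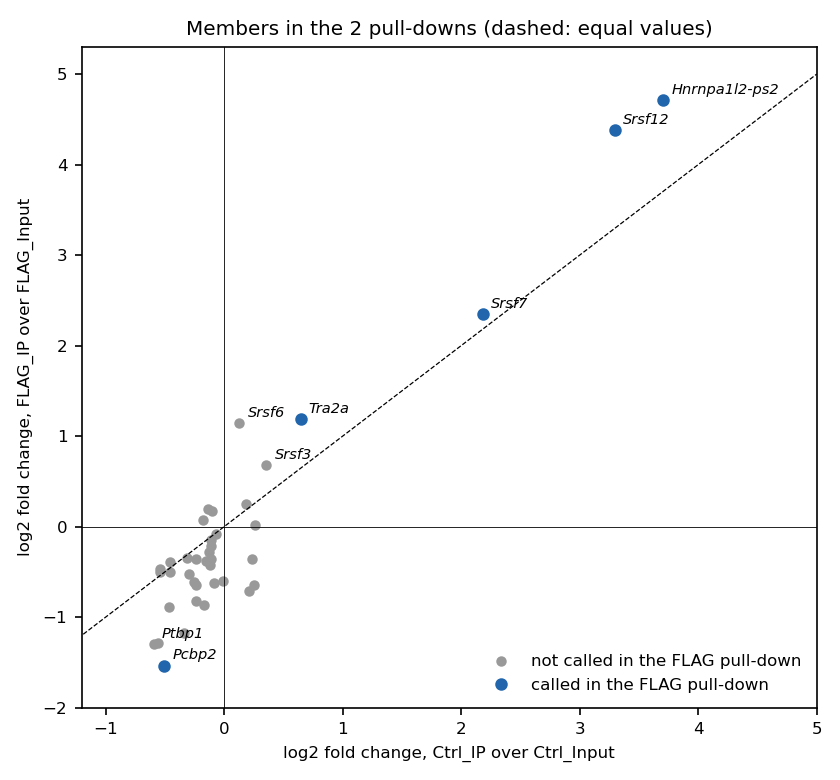
Log2 fold change of the 39 members from FLAG_Input to FLAG_IP (vertical axis) against that from Ctrl_Input to Ctrl_IP (horizontal axis), 1 point per gene, with a dashed line where both are equal. Srsf7 lies close to the line at 2.18 and 2.34, Srsf12 and Hnrnpa1l2-ps2 lie high on both axes, and 28 members lie below 0 on each axis.

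The Srsf7 RNA that rose in the pull-downs was mostly 1 transcript, NR_036615, which includes the poison exon. The exons that set such transcripts apart are shown for 3 SR-type members. In these, chosen after their values were seen, the share of the transcript was higher in every pull-down library than in every input. Over all genes with coding and non-coding transcripts, the non-coding share rose without overlap in 17.1% in the Ctrl pull-down and in 31.1% in the FLAG pull-down. For a coding transcript, as that of Tra2b, no such share over all genes was computed. Shown are the first 120 bases of the exon for Srsf7 and Srsf3 and 30 bases for Tra2b, whose exon is annotated as untranslated. Capitals mark the stop codon that is met first when the transcript is read from the start codon of the coding transcript. The sequences were read from the GRCm38 genome and are written 5′ to 3′ on the strand of the gene.
Srsf7 cassette exon, chr17:80204962-80205081, minus strand: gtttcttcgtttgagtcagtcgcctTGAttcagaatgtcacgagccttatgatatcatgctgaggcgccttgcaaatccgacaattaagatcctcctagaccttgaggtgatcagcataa
Srsf3 cassette exon, chr17:29039454-29039573, plus strand: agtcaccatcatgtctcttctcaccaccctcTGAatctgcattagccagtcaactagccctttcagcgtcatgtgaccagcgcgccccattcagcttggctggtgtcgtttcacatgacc
Tra2b cassette exon, chr16:22259167-22259196, minus strand: gctcaggaataagTGAagctgaaatttgaa

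The Srsf7 exon is 460 nt long (chr17:80204622-80205081), is exon 4 of 9 in NR_036615, and brings a stop after 137 codons in place of the 235 codons of NM_001195485. The Srsf3 exon is 456 nt long (chr17:29039454-29039909), is exon 4 of 7 in NR_036613, and brings a stop after 124 codons in place of 164 in NM_013663. The Tra2b exon is 276 nt long (chr16:22258986-22259261), is exon 2 of 10 in NM_001330555, and brings a stop after 38 codons in place of 288 in NM_009186, although RefSeq annotates that transcript as coding from a start further downstream. The stop codons lie 699, 548 and 1015 nt before the last exon junction, respectively.

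NR_036615 of Srsf7 stood at 1.57 and 1.31 normalized CPM in FLAG_Input and at 30.8 and 44.2 in FLAG_IP (log2 fold change 4.81, SE 0.42, edgeR adjusted p = 0.046, DESeq2 adjusted p = 5.4e-24). In the control arm it stood at 0.96 and 0.65 before and 39.2 and 27.0 after the pull-down (log2 fold change 5.35, SE 0.44, edgeR adjusted p = 0.034, DESeq2 adjusted p = 4.0e-26). Its share of the TPM of Srsf7 was 3.89% to 10.5% in the 4 inputs and 44.9% to 58.9% in the 4 pull-downs, with no overlap. The coding transcripts of Srsf7 together stood at 10.9 to 13.1 normalized CPM in the inputs and 20.8 to 39.2 in the pull-downs. Among them NM_001195485, which has the same exons except the cassette, took 26.1% to 41.5% of the TPM of the gene in the inputs and was at 0 in all 4 pull-downs. Reads of the shared exons were divided by Salmon, so that how much of them belonged to either transcript was not tested. NR_036615 was the sole member transcript called by edgeR in either pull-down, among 4 higher (0.0151%) and 3 lower (0.0113%) of all 26480 transcripts and repeats in the FLAG pull-down and 6 higher (0.0227%) and 0 lower (0%) in the Ctrl pull-down. Without the first or the second FLAG_Input library no member transcript was called there, and NR_036615 then had an adjusted p of 0.37 or 0.28. Without the second FLAG_IP library 47 of 99 member transcripts were called, against 33.4% of all transcripts and repeats, and without the first 2 of 97, against 1% of all, with NR_036615 at a log2 fold change of 4.97 (adjusted p = 0.016) in the latter. In the Ctrl pull-down it lost its call without either Ctrl_Input library or the first Ctrl_IP library, with log2 fold changes of 5.05 to 5.62.

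Srsf3 is the smallest SR protein. Its NR_036613 stood at 4.63 and 3.28 normalized CPM in FLAG_Input against 68.7 and 28.3 in FLAG_IP (log2 fold change 3.80, SE 0.84, edgeR adjusted p = 0.096, DESeq2 adjusted p = 1.7e-04), and at 2.85 and 1.55 in Ctrl_Input against 39.8 and 9.79 in Ctrl_IP (log2 fold change 3.50, SE 0.83, edgeR adjusted p = 0.29, DESeq2 adjusted p = 0.0030). Its share of the TPM of Srsf3 was 2.41% to 7.47% in the inputs and 13.4% to 57.1% in the pull-downs. The coding NM_013663 stood at 48.1 to 54.7 in the inputs and 34.5 to 53.3 in the pull-downs. The coding transcript thus overlapped between inputs and pull-downs, and the non-coding transcript did not.

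For Tra2b, NM_001330555 stood at 19.7 and 23.0 normalized CPM in FLAG_Input and at 99.9 and 93.6 in FLAG_IP (log2 fold change 2.32, SE 0.29, edgeR adjusted p = 0.052, DESeq2 adjusted p = 1.8e-10), and at 19.9 and 19.3 in Ctrl_Input against 53.2 and 39.0 in Ctrl_IP (log2 fold change 1.25, SE 0.28, edgeR adjusted p = 0.25, DESeq2 adjusted p = 0.010). Its share was 14.4% to 17.8% in the inputs and 35.8% to 78.2% in the pull-downs, while the summed Tra2b level was 115 to 125 in the inputs and 103 to 141 in the pull-downs. The summed level of the gene differed far less than this transcript did. Srsf9 also has an annotated cassette of this kind, and not all members were searched for one. Its NR_036616 was at 0% to 2.05% of the TPM in the inputs and at 8.35%, 0%, 45.9% and 7.52% in the Ctrl_IP and FLAG_IP libraries. It was at under 3 normalized CPM in all of them but with most of it in the first FLAG_IP library.

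**Figure D4:**
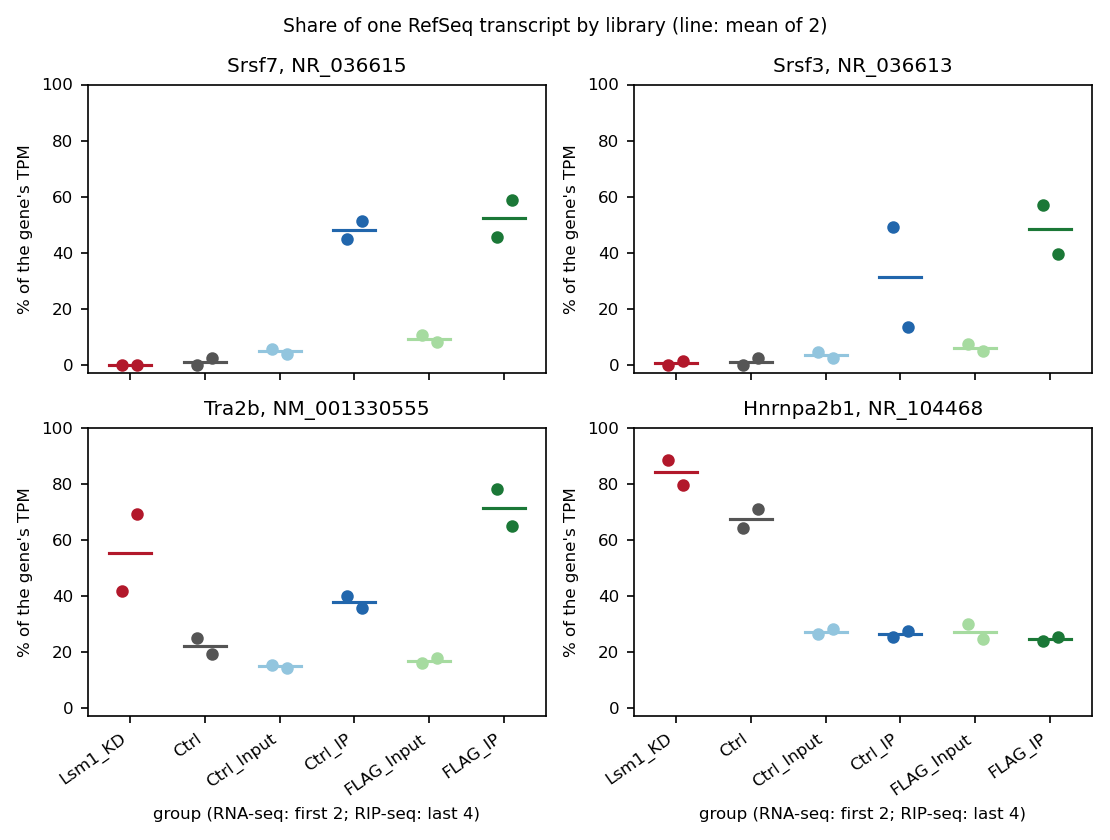
Share of 1 RefSeq transcript in the TPM of its gene (vertical axis, percent) in each of the 12 libraries, with a line at the mean of 2, for Srsf7, Srsf3, Tra2b and Hnrnpa2b1. The poison-exon transcripts of Srsf7, Srsf3 and Tra2b are higher in the 4 pull-downs than in the 4 inputs (44.9% to 58.9% against 3.89% to 10.5% for Srsf7), while NR_104468 of Hnrnpa2b1 is highest in Lsm1_KD.

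Over all genes with both coding and non-coding RefSeq transcripts and at least 1 TPM in each library compared, the share of non-coding transcripts was higher in both pull-down libraries than in both inputs in 77 of 449 genes (17.1%) in the Ctrl pull-down and in 141 of 454 (31.1%) in the FLAG pull-down. It was lower in 84 (18.7%) and 49 (10.8%), respectively. Among the 6 members of this kind it was higher in 2, Srsf3 and Srsf7, and lower in 0 in the Ctrl pull-down. In the FLAG pull-down it was higher in 3, with Srsf9 added, and lower in 1, Hnrnpa1. The second FLAG_IP library alone was above both inputs in 186 of the 454 genes, with the same 3 members among them, and below both in 141, while the first alone was above in 290 and below in 99. Over the 6 members, the median change of the share was 1.47 percentage points in the Ctrl pull-down and 17.2 in the FLAG pull-down. Srsf7 and Srsf3 were singled out after their values were seen. The share moved by 43.4 percentage points for Srsf7 and 27.8 for Srsf3 in the Ctrl pull-down, where the median over all these genes was 0 and 26 genes moved up by over 30 points. In the FLAG pull-down it moved by 42.9 and 42.2 points, against a median of 4.57 and 57 genes over 30 points, and in the second FLAG_IP library alone by 49.5 and 33.4 points, against a median of 0 and 41 genes over 30 points. In Lsm1_KD against Ctrl the count was 77 of 433 genes (17.8%), and of the 6 members it was 1, Hnrnpa2b1.

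In the RNA-seq, NR_036615 of Srsf7 was at 0 in 3 libraries and at 2.40% of the TPM of the gene in the second Ctrl library, and NR_036613 of Srsf3 was at 0% to 2.37%. At these levels no difference between Lsm1_KD and Ctrl was detectable. The 3 libraries without a count of NR_036615 allow up to 0.215 to 0.647 CPM, taking 3 counts as the limit, which covers counting error only.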

How the data were processed

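Total RNA-seq (2 Lsm1_KD and 2 Ctrl libraries) and RIP-seq (FLAG_Input, FLAG_IP, Ctrl_Input and Ctrl_IP, 2 libraries each) were analysed from the deposited quantification. The authors trimmed the reads and ran Salmon on RefSeq transcripts of mm10 and repeat sequences, as the labels and the study's methods state, and the deposited values are estimated counts and TPM per transcript (TPM by the authors). Of nonzero estimated counts, 55.5% were not whole at a tolerance of 1e-06. Trimming is credited to Trimmomatic in the labels and to Cutadapt in the study, and a Salmon version is not given in the labels. The RNA-seq and RIP-seq libraries were made with different kits.

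Of 37713 features, 37366 were RefSeq transcripts and 347 repeats. Transcripts were matched to genes of the GRCm38.p6 annotation (37072 matched, and 294 without a match stayed single), then estimated counts were added up per gene symbol and rounded, which gave 25091 genes and repeats. All 39 members were found by symbol. Of 101 member transcripts, 73 had the same length in the annotation and in the files, among them the 3 whose exon sequences are printed, while NR_104468 of Hnrnpa2b1 had 2280 nt in the files and 2281 nt in the annotation.

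Tests were quasi-likelihood tests of edgeR 4.0.16 (R 4.3.3) with TMM factors, filterByExpr and Benjamini-Hochberg adjustment over all features tested, and a feature was called at an adjusted p under 0.05. The RNA-seq and the RIP-seq were fitted separately, each over all its libraries. All p-values printed as adjusted are from edgeR unless DESeq2 1.42.0 is named. Alternatives were DESeq2, no TMM factors, repeats left out, effective length offsets, a length trend taken out, other abundance filters, limma 3.58.1 on log2(TPM + 1) and log2(TPM + 0.1), a replicate block, the libraries of a comparison alone and single libraries left out. The single-transcript fits of the pull-downs, a crossed pairing and single FLAG_IP libraries alone for the non-coding shares were added after seeing the data. Members, gene lists and tests were chosen with earlier results of these data known.

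Values for every library are given for members called in Lsm1_KD, the 4 most abundant in Ctrl by TPM, and up to 4 called members per direction in each RIP-seq comparison. Of each other gene list, up to 4 called genes per direction with the smallest adjusted p are named. Srsf3, Srsf6, Srsf9, Srsf10, Hnrnph3, Hnrnpll, Hnrnpu, Ptbp1, Ptbp3 and Tra2b, where described elsewhere, were chosen after their values were seen, as were the transcripts printed and the comparison of non-coding shares. The smallest difference the data can show is limited by 2 libraries per group, with a common dispersion of 0.112 (RNA-seq) or 0.239 (RIP-seq). The result of 1 other gene is not reported here.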

Additional observations from a re-analysis of the deposited data

How the results depend on the processing

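In Lsm1_KD, 8 members (21.6%) were called, and 4 (10.8%) without TMM factors and 5 (13.5%) with the length trend taken out. With limma 3 (8.11%) were called on log2(TPM + 1) and 3 (8.11%) on log2(TPM + 0.1). All of these were higher. Of all features, 6.45%, 5.49%, 5%, 3.42% and 3.06% were called higher in these fits, in the order named. In the FLAG pull-down 5 members were called, and 8 by DESeq2, 9 without TMM factors, 9 with the length trend taken out, 10 by limma at either pseudocount and 3 from the libraries of the comparison alone, with 1 to 30 without single libraries. In the Ctrl pull-down 1 member was called, and 3 by DESeq2, 0 with the length trend taken out, 3 without the abundance filter and 4 from the libraries of the comparison alone, with 0 to 1 without single libraries. For LSM1 binding 0 were called, with 0 to 18 without single libraries. For Lsm1_KD transcripts 0 were called, and 14 by DESeq2, 1 without the abundance filter and 1 by limma on log2(TPM + 1). For the transcripts of the pull-downs, DESeq2 called 15 with FLAG and 7 in the control, against 1 each by edgeR, where DESeq2 called 23.5% and 3.85% of all transcripts and repeats, and without single libraries the counts were 0 to 47 and 0 to 1. Over all genes and repeats, 11% were called in Lsm1_KD, 10.9% without TMM factors, 9.72% without the length trend and 9.52% and 8.47% by limma. In the FLAG pull-down they were 26.4%, 40.1% (DESeq2), 28.2% (no TMM), 39.7% (no length trend), 21% and 23.3% (limma), and 21.1% (its libraries alone). In the Ctrl pull-down they were 2.13%, 7.12% (DESeq2), 1.27% (no length trend), 7.01% (no filter) and 17.3% (its libraries alone). The cause of the differences between settings was not tested. Neither the members called with all libraries nor NR_036615 changed direction under the alternatives run for them.

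With the replicate number as a block, 4 members were called in Lsm1_KD, 2 in the Ctrl pull-down, 6 in the FLAG pull-down and 0 transcripts in either pull-down. The replicate numbers share no stated litter, batch or day, and deviations of same-numbered libraries from their group means correlated at -0.11 for Lsm1_KD and Ctrl and at 0.03 to 0.13 for the RIP-seq groups. With the numbers crossed in the RNA-seq, 11 members were called, against 23.1% of all features. In the block fits the shares of all features were 5.66% in Lsm1_KD, 7.66% in the Ctrl pull-down and 31.9% in the FLAG pull-down. Depth limits the scarcest members, Srsf12 and Hnrnpa1l2-ps2, whose inputs held under 10 estimated counts each.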
